A study of Mus musculus with 4 samples.

Results

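The genes described here carry signals of the LIF, IL-6 and IL-21 cytokines in cultured Th2 cells, the CD4 helper T cells that make IL-4, IL-5 and IL-13. The 8 genes were chosen by name (Lif, Osm, Il21, Il6st, Il6ra, Il21r, Stat3 and Socs3), and all 8 were found among 23283 symbols. Of these, 7 had a mean of at least 1 FPKM over the libraries (read fragments scaled to transcript length and library depth), as did 10973 symbols in all, the compared genes. Il21 did not reach that level and is in none of the counts below, but its values are given.

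LIF, oncostatin M (Osm) and IL-6 belong to a family of cytokines that share the receptor chain gp130, encoded by Il6st, and each adds a chain of its own, such as the IL-6 receptor alpha chain Il6ra. IL-21 uses Il21r together with the common gamma chain instead. Both receptor systems act through JAK kinases on the transcription factor STAT3, and SOCS3, itself a STAT3 target, blocks gp130 signalling in return. In T cells these signals are known for their part in Th17 and follicular helper T cells.

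The libraries were made from splenic CD4 T cells of C57BL/6 mice, either Menin knockout (KO) or wild type (WT). Menin, encoded by Men1, works in chromatin complexes of the Trithorax group. Cells were grown for 5 days in 15 ng/ml of IL-2 together with 10 ng/ml of IL-4 (KO 5-day and WT 5-day). A longer culture, named as 3 weeks, added 2 days without cytokines and 5 days of restimulation through the T cell receptor in the presence of IL-2 and of antibodies to IL-4 (KO 3-week and WT 3-week). These steps are shorter than the name, and the sources used here give neither the way Menin was deleted nor the number of mice. IL-2 and IL-4 were thus added in the first culture of every group, while IL-6, LIF or IL-21 are not named as additions.

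Each of the 4 groups held 1 library, so there is no replicate error and no test between cultures or mice. Intervals in brackets are 95% counting intervals on the reads that each FPKM implies at inferred depths of 20.7 to 23.5 M reads, and they cover counting error only. Men1 stood at 10.3 FPKM in KO 5-day, against 32.8 FPKM in WT 5-day, and at 5.88 FPKM in KO 3-week, against 25.4 FPKM in WT 3-week, so both KO libraries were on the side their labels give. The T cell genes Cd4 and Cd3e stood at 147 FPKM or more in every library. Log2 ratios are of FPKM + 1, a scale that understates the differences of low genes.

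Lif, the gene of leukemia inhibitory factor, stood furthest apart between the genotypes at 3 weeks among the 7 compared members, while at 5 days Il6st and Socs3 stood further apart. It stood at 6.42 FPKM in KO 5-day, against 7.64 FPKM in WT 5-day, and at 3.04 FPKM in KO 3-week, against 67.5 FPKM in WT 3-week. WT 3-week was thus high and the other libraries were low. At 5 days the KO level was 84.0% of WT (74.6% to 94.3%), a log2 ratio of -0.22. At 3 weeks it was 4.50% of WT (3.95% to 5.10%), a log2 ratio of -4.09, the 32nd lowest of the 10973 compared genes. In KO the longer culture held 0.473 times the 5-day level (0.407 to 0.551), and in WT it held 8.85 times (8.13 to 9.62). The log2 genotype ratio at 3 weeks minus that at 5 days was -3.87, the 39th lowest such difference.

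Il21, the gene of the cytokine IL-21, showed the same order at a far lower level. It stood at 0.0306 FPKM in KO 5-day, against 0.0333 FPKM in WT 5-day, and at 0.0161 FPKM in KO 3-week, against 0.603 FPKM in WT 3-week. These values imply about 2, 2, 1 and 41 reads in that order, so WT 3-week was again the only library with more than a few reads. The KO to WT ratio at 3 weeks was 0.0267 (0.000657 to 0.157), while at 5 days its interval ran from 0.0663 to 12.6, and no difference was detectable at that depth. With FPKM + 1 the 3-week log2 ratio was only -0.66, since Il21 lay under 1 FPKM in every library. Il21 overlaps an antisense gene, Gm12534, in GENCODE M21, and the sources used here do not say whether the authors' counting used strand.

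**Figure D1:**
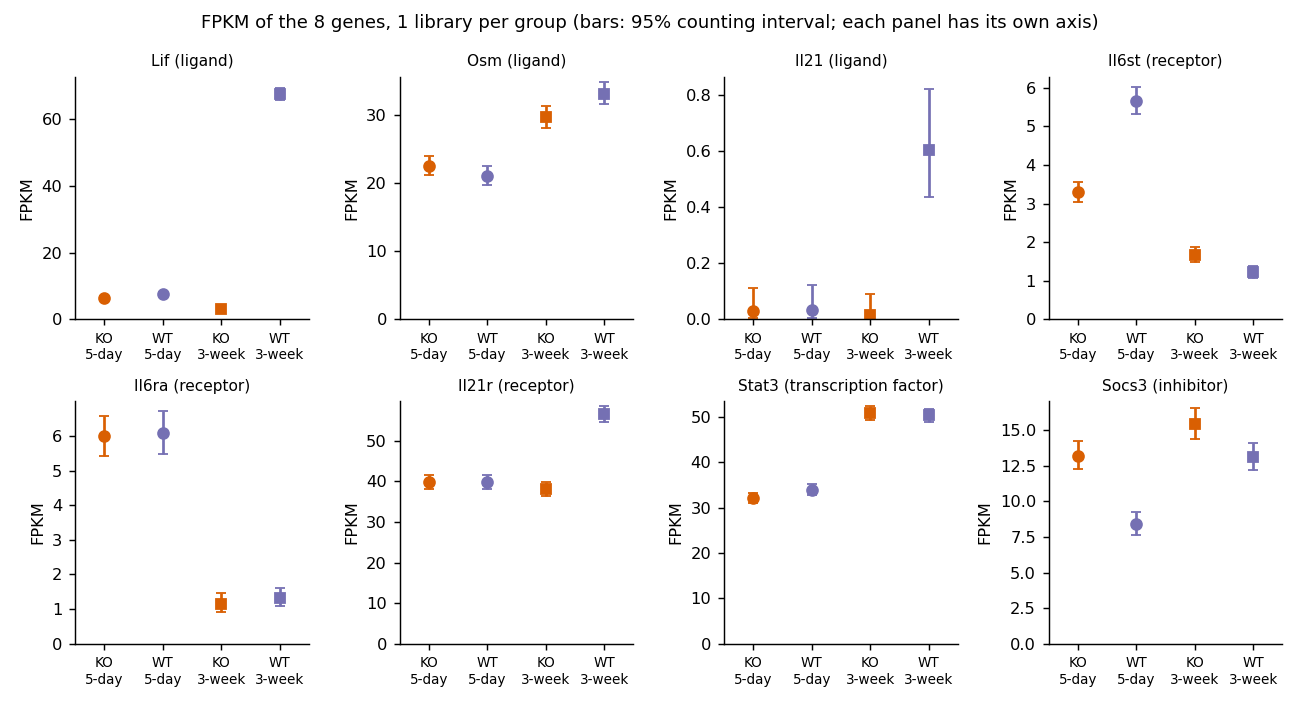
FPKM of each of the 8 genes on a linear axis from 0 in the KO 5-day, WT 5-day, KO 3-week and WT 3-week libraries (orange KO, purple WT; circles 5-day, squares 3-week). Bars are 95% counting intervals, and each panel has its own axis. Lif and Il21 stand high in WT 3-week alone, at 67.5 and 0.603 FPKM, while Il6ra is low in both 3-week libraries.

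The windows around the starts of Lif and Il21 are shown because these members stood several-fold higher in WT 3-week than in any other library. Il21r was also highest in WT 3-week, at 56.5 FPKM, but stood at 38.0 FPKM or more in every library. They run from 250 bases before to 50 after the start, in GRCm38.p6 from RefSeq, and 7 of the 8 genes were matched there. Lif lies on the plus strand at chr11:4257318-4257617 and Il21 on the minus strand at chr3:37232587-37232886. Capitals mark the AP-1 type motif TGANTCA, whose reverse complement has the same form, and the NFAT core GGAAA, searched on both strands together with the STAT type motif TTCNNNGAA and the GATA type motif AGATAA.
Lif: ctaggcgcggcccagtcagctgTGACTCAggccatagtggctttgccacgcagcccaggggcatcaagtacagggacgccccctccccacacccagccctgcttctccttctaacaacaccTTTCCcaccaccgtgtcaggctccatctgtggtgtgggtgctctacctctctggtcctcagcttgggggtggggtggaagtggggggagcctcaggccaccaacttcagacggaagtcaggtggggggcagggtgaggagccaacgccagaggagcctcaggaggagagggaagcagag
Il21: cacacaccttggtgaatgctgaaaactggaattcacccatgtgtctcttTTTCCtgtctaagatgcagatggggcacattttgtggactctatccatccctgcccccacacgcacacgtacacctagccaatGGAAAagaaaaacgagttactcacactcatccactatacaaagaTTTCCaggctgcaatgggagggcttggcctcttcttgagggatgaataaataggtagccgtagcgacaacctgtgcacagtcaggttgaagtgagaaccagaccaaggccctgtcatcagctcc

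The Lif window held 1 TGANTCA, 228 bases before the start, and 1 GGAAA on the opposite strand, 129 bases before it. The Il21 window held 3 GGAAA, of which 2 were on the opposite strand. Of all 32851 windows, 7.81% held TGANTCA and 61.3% held GGAAA, so the letters shared by the pair are common ones. GGAAA was also in the windows of Il6st and Socs3, which were not highest in WT 3-week. The Il21r window held none of these motifs. Neither window held TTCNNNGAA or AGATAA. These are matches of letters and not shown sites.

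Osm, the gene of oncostatin M, lies next to Lif on chromosome 11 (GRCm38, Osm at 4236420 to 4241026 and Lif at 4257557 to 4272514), 16.5 kb away and on the same strand. It stood at 22.6 FPKM in KO 5-day, against 21.1 FPKM in WT 5-day, and at 29.7 FPKM in KO 3-week, against 33.2 FPKM in WT 3-week. Both 3-week libraries were above both 5-day libraries, and the genotypes lay close together at each time. KO over WT gave a ratio of 1.07 (0.981 to 1.17) at 5 days and 0.897 (0.833 to 0.965) at 3 weeks. The 3-week ratio was 0.985 with upper-quartile and 0.966 with median-of-ratios scaling, so its small distance from 1 depended on scaling. Lif therefore stood at 0.102 times the Osm level in KO 3-week and at 2.04 times that level in WT 3-week, both in FPKM, which is per length.

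The other genes near Lif had 3-week ratios much closer to 1. Within 100 kb lie 6 other protein-coding genes that were compared, and none passed 2-fold in KO either way at either time on the FPKM + 1 scale (0 of 6), where 3.59% of all compared genes did at 5 days and 16.2% at 3 weeks. At 3 weeks all 6 log2 ratios were below 0, from -0.72 to -0.04, and with either scaling 5 of the 6 were, Ccdc157 then lying above 0. Next to Osm, Castor1 (listed as Gatsl3) stood at 35.2 FPKM in KO 3-week, against 49.9 FPKM in WT 3-week. On the other side of Lif, Hormad2 stood at 0.284 FPKM in KO 3-week, against 1.11 FPKM in WT 3-week, a log2 ratio of -0.72, the lowest of the 6. As a plain FPKM ratio this was 0.255, past 2-fold, so the added 1 keeps this low gene from being called. Sf3a1, a splicing factor gene, had the log2 ratio next to it, -0.68.

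**Figure D2:**
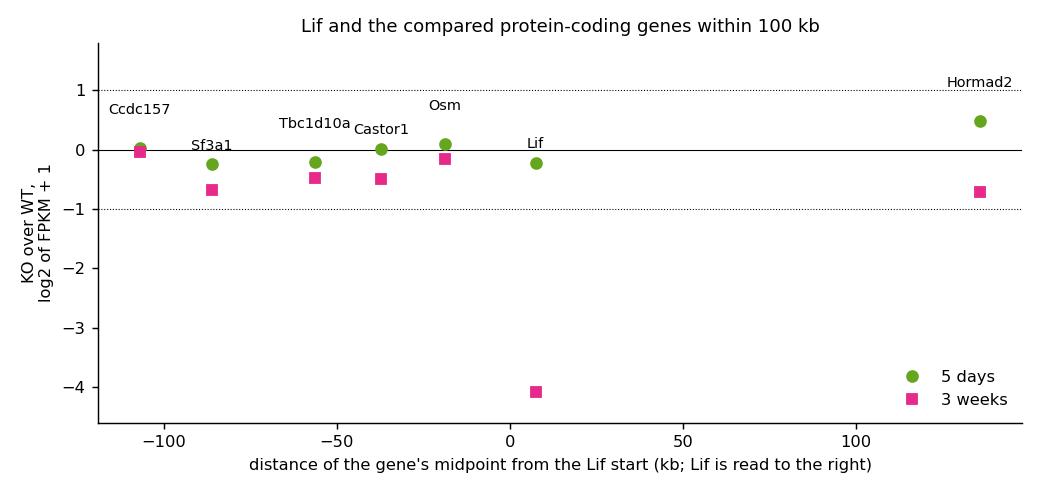
Log2 ratio of FPKM + 1, KO over WT, for Lif and the 6 compared protein-coding genes within 100 kb, against the distance of each gene's midpoint from the Lif start (circles 5 days, squares 3 weeks, dotted lines at 2-fold). Lif at 3 weeks lies at -4.09, and the neighbours lie between the dotted lines at both times, at -0.72 to -0.04 at 3 weeks.

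Around Il21, 2 protein-coding genes within 100 kb were compared. Both had log2 ratios below 0 at 3 weeks, as deposited and under both scalings. Only 1 of the 2 passed 2-fold downward in KO, where 8.19% of all compared genes did. Cetn4, a centrin gene 75.1 kb away, stood at 1.85 FPKM in KO 5-day, against 3.75 FPKM in WT 5-day, and at 2.59 FPKM in KO 3-week, against 14.9 FPKM in WT 3-week, a 3-week log2 ratio of -2.15. Bbs12 stood at 4.26 FPKM in KO 3-week, against 7.35 FPKM in WT 3-week, a log2 ratio of -0.67. Il2, the cytokine gene on the other side, was listed at 0 in both 3-week libraries and in KO 5-day, and stood at 0.0644 FPKM in WT 5-day.

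Among the receptor genes, Il6ra and Il6st stood lower in the longer culture. Il6ra, the chain that binds IL-6, stood at 5.98 FPKM in KO 5-day, against 6.08 FPKM in WT 5-day, and at 1.16 FPKM in KO 3-week, against 1.33 FPKM in WT 3-week. The libraries of a culture time lay together and the culture times lay far apart. Over the times the 3-week level was 0.194 times the 5-day level in KO (0.151 to 0.248) and 0.219 times in WT (0.173 to 0.273). The intervals of the genotype ratio at each time included 1 (0.856 to 1.13 at 5 days, 0.645 to 1.19 at 3 weeks), so no genotype difference was detectable at this depth. Il6ra overlaps an antisense gene, Gm42809.

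Il6st, the shared gp130 chain, had genotype ratios on opposite sides of 1. It stood at 3.30 FPKM in KO 5-day, against 5.67 FPKM in WT 5-day, and at 1.68 FPKM in KO 3-week, against 1.22 FPKM in WT 3-week. Its KO to WT ratio was 0.583 (0.526 to 0.644) at 5 days and 1.37 (1.15 to 1.63) at 3 weeks. On the log2 scale these were -0.63, the 245th lowest of the compared genes at 5 days, and 0.27. The 3-week level was 0.509 times the 5-day level in KO (0.442 to 0.583) and 0.216 times in WT (0.187 to 0.249). Il6st has 10 annotated transcripts of very different length, so its read numbers are approximate.

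Il21r, the IL-21 receptor gene, was among the 3 members with the highest FPKM in every library. It stood at 39.8 FPKM in both KO 5-day and WT 5-day, and at 38.0 FPKM in KO 3-week, against 56.5 FPKM in WT 3-week. WT 3-week stood above the other libraries, which lay together. The KO to WT ratio was 1.0 (0.939 to 1.06) at 5 days and 0.673 (0.635 to 0.713) at 3 weeks, where the log2 ratio was -0.56. Its neighbour Il4ra, the receptor gene for IL-4, lies 24.0 kb away and stood at 65.4 FPKM in KO 3-week, against 87.5 FPKM in WT 3-week, a log2 ratio of -0.42.

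Stat3, the transcription factor gene, stood at 32.0 FPKM in KO 5-day, against 33.9 FPKM in WT 5-day, and at 50.9 FPKM in KO 3-week, against 50.3 FPKM in WT 3-week. The genotypes lay together and the culture times apart. The KO to WT ratio was 0.945 (0.898 to 0.993) at 5 days and 1.01 (0.971 to 1.05) at 3 weeks, while the 3-week level was 1.59 times the 5-day level in KO (1.52 to 1.66) and 1.48 times in WT (1.42 to 1.55). Of its 3 compared neighbours on chromosome 11, 1 passed 2-fold upward and 1 downward in KO at 3 weeks on the FPKM + 1 scale. Of all compared genes 7.97% were higher and 8.19% lower at that time. Atp6v0a1, a proton pump subunit gene 69.9 kb away, stood at 19.3 FPKM in KO 3-week, against 8.65 FPKM in WT 3-week, a log2 ratio of 1.07. Stat5b stood at 11.8 FPKM in KO 3-week, against 27.7 FPKM in WT 3-week, a log2 ratio of -1.16, and Stat5a, whose annotated end overlaps that of Stat3 by 72 bases on the opposite strand, at 12.4 FPKM in KO 3-week, against 25.3 FPKM in WT 3-week, a log2 ratio of -0.97. As a plain FPKM ratio Stat5a stood at 0.490 as deposited, just past 2-fold. It was not past 2-fold with upper-quartile (0.538) or median-of-ratios scaling (0.528).

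Socs3, the feedback inhibitor gene, stood at 13.2 FPKM in KO 5-day, against 8.42 FPKM in WT 5-day, and at 15.5 FPKM in KO 3-week, against 13.1 FPKM in WT 3-week. WT 5-day was the low library. Here the KO to WT ratio was 1.57 (1.39 to 1.78) at 5 days, a log2 ratio of 0.59, and 1.18 (1.06 to 1.303) at 3 weeks, a log2 ratio of 0.22. The window at its start is shown because it was the only 1 of the 7 matched windows with a STAT type motif. It lies on the minus strand at chr11:117969317-117969616, and capitals mark TTCNNNGAA, 154 bases before the start, and GGAAA, 135 bases before it. Of all windows, 8.30% held TTCNNNGAA.
Socs3: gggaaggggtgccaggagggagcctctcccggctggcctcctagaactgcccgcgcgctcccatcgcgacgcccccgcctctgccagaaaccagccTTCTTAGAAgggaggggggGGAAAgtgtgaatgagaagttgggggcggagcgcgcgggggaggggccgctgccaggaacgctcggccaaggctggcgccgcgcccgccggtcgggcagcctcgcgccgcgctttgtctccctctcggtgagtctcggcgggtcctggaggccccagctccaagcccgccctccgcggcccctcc

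Set against all genes, the compared members as a group stood near the middle. At 5 days 0 of the 7 were at least 2-fold higher or lower in KO, where 3.59% of all compared genes were (2.77% higher and 0.82% lower), and their median log2 ratio was -0.02, as it was for all compared genes. At 3 weeks 1 of 7, Lif, was lower and 0 were higher, where 16.2% of all compared genes were called (7.97% higher and 8.19% lower), and the median was -0.11, against -0.08 for all compared genes. The share of members called is thus close to that of all genes. Between the times the genotype ratio changed by 4-fold or more in 1 of 7, again Lif, which was lower, and in 2.04% of all compared genes (1.26% higher and 0.784% lower). At 3 weeks the split of all calls depended on scaling, with 49.3% of calls higher as deposited and 60.4% higher with upper-quartile scaling, under which the median over all genes was 0.03 in place of -0.08.

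**Figure D3:**
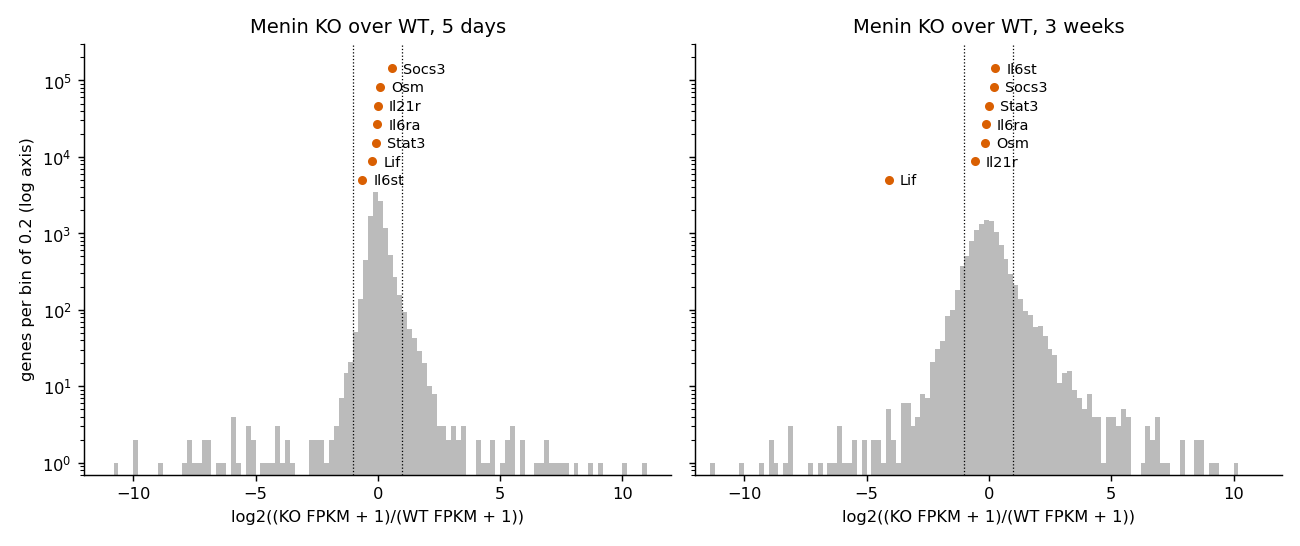
Distribution of the log2 ratio of FPKM + 1, KO over WT, over the 10973 compared genes (grey, log axis of genes per bin) at 5 days and at 3 weeks, with the 7 compared members as orange points. The height of a point has no meaning, and dotted lines mark 2-fold. At 3 weeks Lif lies at -4.09 and the other members between the dotted lines.

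Between the culture times, Il6ra was at least 2-fold lower at 3 weeks in KO, while in WT Lif was at least 2-fold higher and Il6ra and Il6st were at least 2-fold lower. That is 1 of 7 members in KO, where 8.74% of all compared genes were called (4.35% higher and 4.39% lower), and 3 of 7 in WT, where 5.86% were (3.03% higher and 2.83% lower). Lif in KO lay near the limit, at a log2 ratio of -0.88 on the FPKM + 1 scale and -1.05 with a pseudocount of 0.1, under which 2 of 7 members in KO were past 2-fold. With counts this small, the shares rest on single genes. Restimulation and the factors in the medium also differed between the cultures and cannot be told apart from time.

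**Figure D4:**
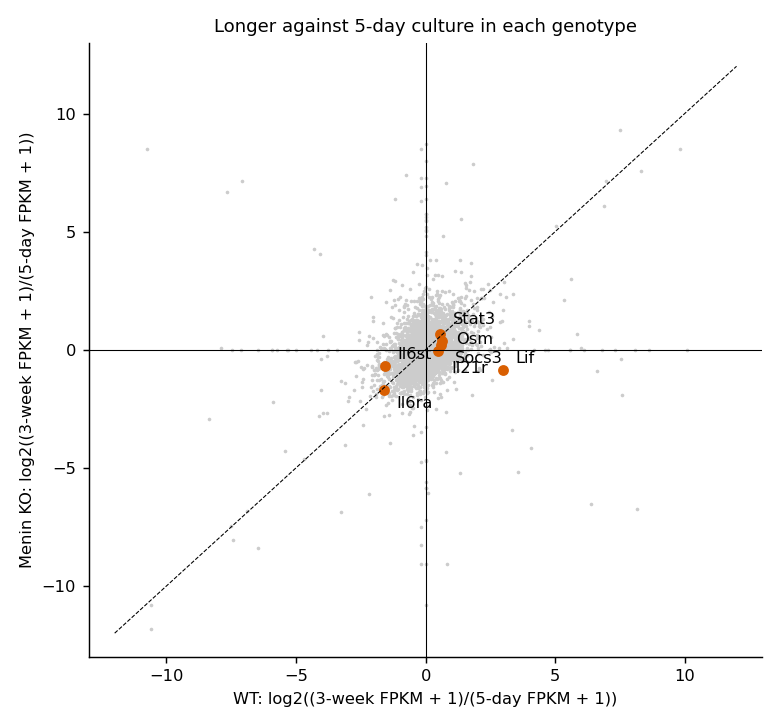
Log2 ratio of FPKM + 1, 3-week over 5-day, in KO (vertical axis) against WT (horizontal axis) for all compared genes (grey) and the 7 compared members (orange). The dashed line marks equal ratios. Il6ra lies near that line at -1.69 in KO and -1.60 in WT, while Lif lies at -0.88 in KO and 2.99 in WT.

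The order of levels, in FPKM, also set Lif apart. In KO 5-day and WT 5-day the order was Il21r, Stat3, Osm, Socs3, Lif, Il6ra, Il6st and Il21. In KO 3-week it was Stat3, Il21r, Osm, Socs3, Lif, Il6st, Il6ra and Il21. In WT 3-week Lif came first, ahead of Il21r, Stat3, Osm, Socs3, Il6ra, Il6st and Il21. The counting intervals of neighbours overlapped for Lif and Il6ra in KO 5-day, for Socs3 and Lif and for Il6ra and Il6st in WT 5-day, and for Il6ra and Il6st in WT 3-week, and between cultures the spread is unknown.

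Genes with the most similar profile over the 4 libraries were found by the largest difference between centred log2(FPKM + 1) values. For Lif they were Tuba8, Htr1b and Lta, at 0.51, 0.52 and 0.64 among 6384 genes of like mean. Lta, the lymphotoxin alpha gene, stood at 2.50 FPKM in KO 3-week, against 29.4 FPKM in WT 3-week, and Tuba8, a tubulin gene, at 0.639 FPKM in KO 3-week, against 17.3 FPKM in WT 3-week. For Il6ra the nearest was Selenbp1 (0.12), and for Il6st it was Marcksl1 (0.19). For Osm, Il21r, Stat3 and Socs3 the nearest were Cmpk1, Gne, Tmem126a and Cyp4f16, all within 0.04.

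Of the other ligands of the gp130 family and their subunits, 11 genes were in the files and 3 were compared. In KO, 1 of 3 was at least 2-fold higher at each time and 0 were lower, where 2.77% of all compared genes were higher at 5 days and 7.97% at 3 weeks. At 5 days it was Ebi3, a subunit of IL-27 and IL-35, at 74.9 FPKM in KO, against 32.7 FPKM in WT. At 3 weeks it was Clcf1, the gene of cardiotrophin-like cytokine factor, at 23.1 FPKM in KO, against 4.67 FPKM in WT, a ratio of 4.96 (4.21 to 5.85). Lif and Clcf1 thus stood on opposite sides at 3 weeks. Il6 itself stood at 1.04 FPKM in KO 5-day, against 0.433 FPKM in WT 5-day, and at 1.67 FPKM in both 3-week libraries. Ctf2 was listed at 0 in every library, and Ctf1 and Il12a in both 3-week libraries.

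Of the 7 other receptor chains listed, Lifr, Osmr, Cntfr and Il31ra lay under 1 FPKM in every library, while Il2rg and Il27ra were well expressed. Lifr, which LIF needs beside gp130, implied 6 reads in KO 5-day, 1 in WT 5-day, 7 in KO 3-week and 0 in WT 3-week, the library with the highest Lif. Osmr, the chain for oncostatin M, stood at 0.259 FPKM in KO 3-week, against 0.0637 FPKM in WT 3-week (about 30 and 8 reads), and Cntfr was listed at 0 in every library. Il31ra, the gene next to Il6st, stood at 0.639 FPKM in KO 3-week, against 0.0122 FPKM in WT 3-week (about 48 reads and 1 read). The other 3, Il11ra1, Il27ra and Il2rg, were compared, and 0 of the 3 were at least 2-fold apart at either time on the FPKM + 1 scale. As a plain FPKM ratio, Il11ra1 was past 2-fold at 3 weeks, at 2.41 (1.32 to 4.38). It stood at 1.16 FPKM in KO 3-week, against 0.479 FPKM in WT 3-week. Il27ra, the IL-27 receptor chain that pairs with gp130, stood at 31.3 FPKM in KO 5-day, against 25.3 FPKM in WT 5-day, and at 38.9 FPKM in KO 3-week, against 27.2 FPKM in WT 3-week. Il2rg, the common gamma chain that IL-21 needs, stood at 268 FPKM in KO 5-day, against 282 FPKM in WT 5-day, and at 344 FPKM in KO 3-week, against 282 FPKM in WT 3-week.

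Of 10 JAK and STAT genes, 0 were at least 2-fold apart at 5 days, and at 3 weeks 1 was higher, Stat4, and 1 was lower, Stat5b, with a median log2 ratio of 0.42. Of all compared genes 3.59% were called at 5 days, and 7.97% were higher and 8.19% lower at 3 weeks, close to 1 in 10 each way. Stat4 stood at 23.6 FPKM in KO, against 11.3 FPKM in WT, a log2 ratio of 1.01, just at 2-fold. Stat2, Tyk2 and Jak1 lay between 0.50 and 0.65 on the log2 scale. Of 13 negative regulators 0 were at least 2-fold apart at either time, with median log2 ratios of 0.01 at 5 days and -0.08 at 3 weeks. The 3-week median was 0.04 with upper-quartile and 0.01 with median-of-ratios scaling, and Pias3, an inhibitor of STAT3, then passed 2-fold upward. Its plain FPKM ratio as deposited was 2.01 (1.82 to 2.23) at 3 weeks, also just past 2-fold. Both Cish and Socs1 were at least 2-fold higher in the longer culture in each genotype, and Socs2 in WT only, unlike Socs3. That is 2 of 13 in KO and 3 of 13 in WT, where 4.35% and 3.03% of all compared genes were higher.

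Of 20 genes known as STAT3 targets in T cells, 14 were compared. At 5 days 1 was at least 2-fold higher in KO and 0 were lower, and at 3 weeks 1 was higher and 2 were lower, with medians of 0.18 at 5 days and -0.07 at 3 weeks. Over all compared genes 2.77% were higher and 0.82% lower at 5 days, and 7.97% higher and 8.19% lower at 3 weeks, so these few calls are near the background. The 3-week median was 0.07 with upper-quartile and 0.04 with median-of-ratios scaling, where 1 gene was higher and 1 lower, Pim1 being no longer past 2-fold. The higher gene at 5 days was Maf, at 43.7 FPKM in KO, against 13.7 FPKM in WT. At 3 weeks Bcl6, a transcriptional repressor gene, stood at 5.87 FPKM in KO, against 0.794 FPKM in WT, while Myc stood at 14.7 FPKM in KO, against 75.8 FPKM in WT, and the kinase gene Pim1 at 65.3 FPKM in KO, against 141 FPKM in WT. As plain FPKM ratios, Rora (3.15) and Fos (0.400) at 5 days and Fos (0.346) and Prdm1 (0.459) at 3 weeks were past 2-fold too. The Th17 genes Il17a, Il22 and Il23r were listed at 0 in every library.

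Of 13 genes of follicular helper T cells, helper cells that are a main source of IL-21, 11 were compared. At 5 days 2 were at least 2-fold higher in KO (Maf and Pdcd1) and 2 were lower (Btla and Cd40lg), with a median log2 ratio of 0.04. Of all compared genes 2.77% were higher and 0.82% lower at that time. At 3 weeks 1 of 11 was higher (Bcl6) and 6 of 11 were lower, against 7.97% and 8.19% of all compared genes, with a median of -1.14. The lower genes at 3 weeks were Cd40lg, Irf4, Sh2d1a, Btla, Icos and Cxcr4. Sh2d1a, the gene of the adaptor SAP, stood at 3.90 FPKM in KO, against 24.5 FPKM in WT, and Btla, an inhibitory receptor gene, at 0.0152 FPKM in KO, against 4.0 FPKM in WT. Btla lay under 1 FPKM in both KO libraries and was compared only through its WT values. The filter thus nearly fixed its direction, so its part in the counts of lower genes cannot show an excess over all genes. Icos, a costimulatory receptor gene, stood at 50.8 FPKM in KO, against 125 FPKM in WT. The chemokine receptor gene Cxcr5, a defining gene of these cells, was at or under 0.0992 FPKM in every library, and the list was chosen with earlier results of these data known.

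**Figure D5:**
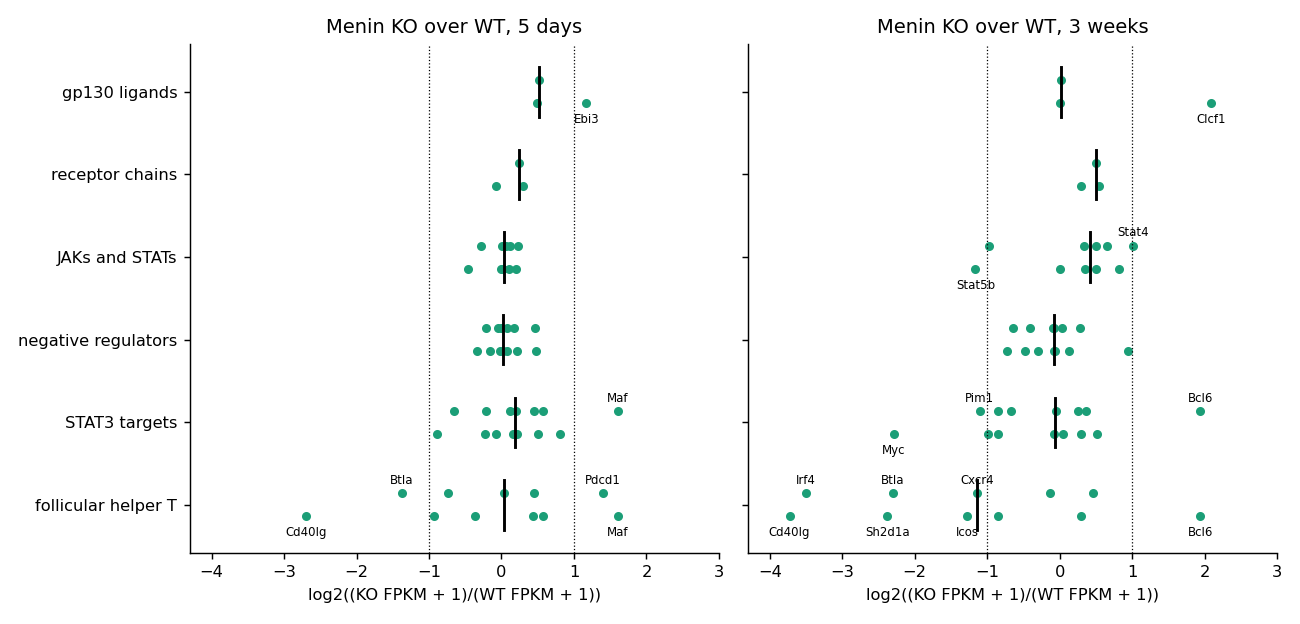
Log2 ratio of FPKM + 1, KO over WT, of the compared genes of 6 pathway lists at 5 days and at 3 weeks (each point a gene, black bars the list medians, dotted lines at 2-fold, names for genes past them). The follicular helper T cell list has its median at -1.14 at 3 weeks and the other lists between -0.08 and 0.50.

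Markers of other cell types are given next, since in bulk samples fewer cells of a type and less RNA per cell cannot be told apart. Of 37 listed markers of 8 other cell types, 36 were in the files and 9 were compared. In KO 3 of the 9 were at least 2-fold higher at 5 days (Itgax, Mcpt8 and Epcam) and 5 of 9 at 3 weeks (with Itgam and Cd68), and 0 were lower at either time, where 2.77% of all compared genes were higher at 5 days and 7.97% at 3 weeks. Itgax, Mcpt8 and Itgam lay under 1 FPKM in both WT libraries and were compared only through their KO values. The filter thus nearly fixed their direction, so these counts cannot show an excess over all genes. Summed FPKM of the 7 macrophage and monocyte markers was 11.3 in KO 5-day, against 4.75 in WT 5-day, and 20.0 in KO 3-week, against 3.55 in WT 3-week. In KO 3-week the sum came mostly from Cd68 and Itgam, at 12.9 and 4.75 FPKM, against 3.25 and 0.0283 FPKM in WT 3-week. Cd14 stood at 2.03 FPKM in KO 3-week, against 0.0978 FPKM in WT 3-week, and Adgre1 at 0.364 FPKM in KO 3-week, against 0.0693 FPKM in WT 3-week, while Lyz2, Csf1r and Fcgr1 were listed at 0 in KO 3-week. The 5 dendritic cell markers summed to 4.29 FPKM in KO 5-day, against 0.589 in WT 5-day, and to 11.4 FPKM in KO 3-week, against 2.39 in WT 3-week, most of it from Itgax, at 8.63 FPKM in KO 3-week, against 0.0497 FPKM in WT 3-week, and Xcr1, at 2.71 FPKM in KO 3-week, against 2.27 FPKM in WT 3-week. Flt3 stood at 0.0267 FPKM and Siglech at 0 in KO 3-week.

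The 4 NK cell markers summed to 2.24 FPKM in KO 5-day, against 0.321 in WT 5-day. At 3 weeks their sum was 2.42 FPKM in KO, against 0.0174 in WT. Most of both KO sums came from Klrb1c, with 1.51 FPKM at 5 days and 1.96 FPKM at 3 weeks. Its WT values were 0.119 and 0.0174 FPKM. Klre1 implied 12 reads at 5 days and 8 at 3 weeks in KO, against 5 and 0 in WT. Ncr1 implied only 7 and 3 reads in KO, against 0 in both WT libraries. For Klra8 no library implied more than 1 read. The 2 CD8 markers summed to 5.70 FPKM in KO 5-day, against 4.38 in WT 5-day, and to 3.77 FPKM in KO 3-week, against 2.04 in WT 3-week. The 5 B cell markers summed to 2.72 FPKM in KO 5-day, against 1.62 in WT 5-day, and to 0.278 FPKM in KO 3-week, against 0.155 in WT 3-week, with Pax5 at 0 in every library. For the 5 mast cell and basophil markers the sum was 25.04 FPKM in KO 5-day, against 14.6 in WT 5-day, and 18.3 FPKM in KO 3-week, against 10.5 in WT 3-week. Most of each sum came from Cpa3, at 21.6 FPKM in KO 5-day, against 14.4 FPKM in WT 5-day, and at 10.2 FPKM in both 3-week libraries. Among the others Mcpt8 stood at 7.93 FPKM in KO 3-week, against 0.266 FPKM in WT 3-week, and Kit at 0.793 FPKM in KO 5-day, against 0.116 FPKM in WT 5-day. Fcer1a implied at most 1 read in any library, and Ms4a2 was at 0 in every library. These sums, like those of the macrophage, dendritic, NK, CD8 and B cell markers, were higher in KO at both times. The granulocyte and stromal sums were each higher in KO at only 1 of the times. The 3 granulocyte markers stayed at or under 0.284 FPKM in sum, with S100a9 at 0 in every library. The 5 stromal markers summed to 43.0 to 58.0 FPKM, most of it from Pecam1, which T cells also express, and Epcam among them stood at 14.6 FPKM in KO 3-week, against 3.54 FPKM in WT 3-week. Of the 7 Th2 markers, 4 were at least 2-fold lower in KO at 3 weeks (Gata3, Il4, Il5 and Il13), where 8.19% of all compared genes were. Lif was low in the same library. The others, Cd4, Cd3e and Cd3d, stood higher in KO 3-week, at 307, 318 and 225 FPKM, against 212, 206 and 143 FPKM in WT 3-week. Under both scalings 3 of the 7 were at least 2-fold lower, without Gata3. The part of any of these in the results for Lif, Il21 or Il6st was not tested.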

How the data were processed

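RNA was extracted with TRIzol and made into TruSeq Stranded mRNA libraries, per the labels' protocols. The authors deposited FPKM values in a file for each library, a unit inferred from the name of Cufflinks and from the values themselves. Per the submitters' processing notes, the tools were Cufflinks 2.0.2, TopHat 1.3.2 and Bowtie 0.12.8 and the build was mm10. The sources used here do not give the annotation, the strand setting or any filter. There were 23746 lines in a file, and lines of the same symbol were summed (240 symbols, 0 of them members). A symbol with 1 unreadable cell was left out.

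With 1 library per group no test between groups was made and no p-value is given. A model of genotype and time without their interaction would leave 1 residual degree of freedom and take the interaction as error, so none was fitted. Genes were compared at a mean of at least 1 FPKM and called at 2-fold on log2(FPKM + 1), and at 4-fold for the difference between times.

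Depth was inferred from the steps of low FPKM values, using GENCODE M21 genes with a single transcript, with lengths reduced by 200 bases. Within 0.05 of a whole read lay 60.8% to 63.1% of values, where evenly spread ones give 10%. Implied reads used the shortest principal transcript with a RefSeq match, and ratios got exact Clopper-Pearson 95% intervals of the share of reads. The 2-fold rule was run on simulated counts with known fold changes at the inferred depths. That run held no spread between cultures, and it tested neither the inferred depths nor the intervals. Alternatives were pseudocounts of 0.1 and 5, upper-quartile and median-of-ratios scaling, a mean of 5 FPKM or no filter, and the highest line of a symbol.

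The members, lists and tests were chosen with earlier results of these data known. Named were all members, list genes past 2-fold or at 0 (at most 6 per list and contrast), the nearest protein-coding neighbours within 100 kb, and, for likeness, genes with a mean within 4-fold of the member's. Genes named outside that rule (Hormad2, Sf3a1, other listed genes and the markers) were chosen after their values were seen. Ly6g had no matching symbol and was not analysed here. Adgre1, Castor1 and others were matched by older symbols. Python 3.11.15, pandas 2.3.3, numpy 2.4.6 and scipy 1.17.1 were used.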

Additional observations from a re-analysis of the deposited data

Results flagged for a closer look

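Il6st had a KO to WT ratio of FPKM of 0.583 at 5 days and 1.37 at 3 weeks, so KO was lower than WT in the shorter culture and higher in the longer one. Both counting intervals lay away from 1 (0.526 to 0.644, and 1.15 to 1.63), which is what marked it, and neither ratio reached 2-fold. The difference was not tested, since each group held 1 library.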

How the results depend on the processing

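Lif was the 1 member called at 3 weeks, and the 1 called for the difference between the times, with pseudocounts of 0.1 and 5, both scalings, both filters and the highest line of a symbol, and 0 members were called at 5 days in all of these. As FPKM ratios without a pseudocount, a choice made after seeing the data, 2 members were called at 3 weeks and 2 for the difference, Lif and Il21. That choice drops both the pseudocount and the filter. With the filter alone dropped Il21 was compared but not called. Over all genes at 5 days, 394 calls became 642 with a pseudocount of 0.1 and 178 with 5, and at 3 weeks 1773 became 898 with 5, because a pseudocount weighs on low genes. Of the 32 member ratios, 29 kept their side of 2-fold with a pseudocount of 0.1, where Lif in KO, 3-week over 5-day (-1.05), Il21 in KO over WT at 3 weeks (-2.60) and Il21 in WT, 3-week over 5-day (2.40), passed 2-fold, and 29 with 5, where Il6st in WT and Il6ra in both genotypes, 3-week over 5-day, fell under 2-fold. All 32 kept it under both scalings, and 0 called ratios reversed. Log2 ratios of Il6ra and Il21r at 5 days, -0.02 and 0.00 as deposited, were 0.01 and 0.04 with upper-quartile scaling, so these have no direction. The Osm log2 ratio at 3 weeks, -0.15 as deposited, was -0.02 with upper-quartile scaling. No paired analysis was possible because each group held 1 library. The spread between cultures is unmeasured for every value, and depth limits Il21, Lifr and Osmr.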
